A study of Mus musculus with 6 samples.

Results

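This account covers 10 genes of the ATF4 stress response and of serine and folate metabolism in mouse macrophages that were wild type or knocked out for Setd2. The genes were chosen by symbol (Atf4, Ddit3, Trib3, Chac1, Sesn2, Asns, Phgdh, Psat1, Shmt2 and Mthfd2). All 10 were found among the 17904 genes of the deposited table, and all 10 reached 1 FPKM in at least 1 library. FPKM counts sequenced fragments relative to transcript length in kilobases and to library size. Bone marrow-derived macrophages were grown with M-CSF for 5 days from the marrow of C57BL/6 animals aged 8 weeks. The cells carried the genotype label Setd2-KO (KO) or WT. Setd2 encodes a histone methyltransferase whose mark covers the bodies of transcribed genes. Each genotype was sampled without lipopolysaccharide (LPS, a bacterial cell wall component; 0 h) and after 12 h and 24 h with 100 ng/ml LPS. The labels do not describe the Setd2 allele, the driver of its deletion, or which libraries share an animal or a culture. Each of the 6 combinations of genotype and time held 1 library, so no difference here has a replicate error or a test. In bulk RNA, fewer cells with a transcript and less transcript per cell cannot be told apart.

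The integrated stress response begins when a stress-sensing kinase phosphorylates the translation factor eIF2α, for example on amino acid shortage, misfolded protein in the endoplasmic reticulum, heme shortage or viral RNA. General translation slows, while the mRNA of the transcription factor ATF4 is translated more. ATF4 then activates genes for amino acid synthesis and uptake, for glutathione metabolism, and for regulators that dampen or redirect the response. In activated macrophages, the serine pathway draws on glycolysis and feeds glycine, folate-bound carbon units and glutathione.

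Promoter sequence is shown for the genes in which a binding motif of ATF4 with a C/EBP partner was found. The motif searched was TGATGNAA on both strands, which reads TTNCATCA on the opposite strand, in RefSeq promoter windows of GRCm38.p6 that run from 250 bases before to 50 bases after each annotated start. It was present in 3.97% of all 32851 windows and in 3 of the 11 windows of the 10 genes, those of Chac1, Asns and Trib3. The endoplasmic reticulum stress element, searched as CCAAT and CCACG with 9 free bases between them, on both strands, was in 0 of the 11 windows and in 0.119% of all windows. The Chac1 match begins 193 bases before the start, the Asns match 23 bases before it, and the Trib3 match 14 bases after it. The sequences run 5′ to 3′ on the strand of the gene, with the match in capitals. The Chac1 stretch is chr2:119350992-119351241 (plus strand), the Asns stretch chr6:7693210-7693459 (minus strand), and the Trib3 stretch is the 30 bases of chr2:152344028-152344057 (minus strand) around the match.
Chac1: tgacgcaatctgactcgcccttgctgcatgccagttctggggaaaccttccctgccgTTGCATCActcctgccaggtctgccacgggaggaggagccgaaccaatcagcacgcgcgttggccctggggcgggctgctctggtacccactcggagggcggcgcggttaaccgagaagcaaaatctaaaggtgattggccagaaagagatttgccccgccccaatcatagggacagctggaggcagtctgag
Asns: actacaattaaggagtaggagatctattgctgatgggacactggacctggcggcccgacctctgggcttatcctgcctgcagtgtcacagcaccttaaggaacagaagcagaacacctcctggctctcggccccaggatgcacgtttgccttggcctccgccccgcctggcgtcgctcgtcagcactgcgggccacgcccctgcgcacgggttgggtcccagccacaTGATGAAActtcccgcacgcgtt
Trib3: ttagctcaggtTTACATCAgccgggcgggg
A match is a description of the letters and was not tested as a binding site.

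The spacing of low FPKM values, each a multiple of what 1 read is worth, gave an estimate of 21670000 to 22510000 reads per library under an assumed read length of 50 nt. Setd2 itself stood at 9.96, 9.16 and 5.11 FPKM in KO and at 7.83, 8.68 and 7.51 FPKM in WT at 0, 12 and 24 h, so the gene-level value does not check the labels, and every KO direction below rests on them. All 8 macrophage markers were above 1 FPKM in at least 1 library, but Lyz2 lay between 17.7 and 54.5 FPKM in the KO libraries, against 3903 to 9015 FPKM in the WT libraries. At 24 h KO was also below WT for Adgre1 (732 and 1284 FPKM) and Csf1r (446 and 826). The same held for Itgam (163 and 387) and Mertk (8.50 and 18.2). Cd68, Cd14 and Fcgr1 were higher in KO at that time. At 0 h KO was above WT for Csf1r (511 and 496 FPKM), Itgam (168 and 122) and Mertk (14.6 and 7.73). Cd14 (161 and 135) and Fcgr1 (83.4 and 47.3) were also above WT at 0 h. Adgre1 (284 and 292) and Cd68 (1185 and 1353) were below it. Summed T and NK cell markers reached at most 0.79 FPKM in KO and 0.57 in WT, and summed B cell markers at most 2.06 and 3.52. Summed neutrophil markers were at 41.4 to 66.1 FPKM in KO and 81.6 to 87.6 in WT. Summed fibroblast markers (3 of 5 at 1 FPKM or more in some library) were at 11.88, 10.34 and 10.90 FPKM in KO and 6.35, 8.79 and 11.89 FPKM in WT at 0, 12 and 24 h. Summed endothelial markers (3 of 3) were at 8.82, 23.21 and 6.08 FPKM in KO and 3.48, 14.90 and 6.76 FPKM in WT. Both sums were higher in KO at 0 h and lower in KO at 24 h, as were most of the 10 genes. The macrophage markers Csf1r, Itgam and Mertk ran that way too. The members of each sum did not all run alike. Kdr made up most of the endothelial sum (8.08 FPKM in KO and 2.67 in WT at 0 h), while Pecam1 was lower in KO at 0 h (0.54 and 0.70). Col1a1 and Col1a2 went with the fibroblast sum. Dcn went the other way, at 0.22 FPKM in KO and 0.35 in WT at 0 h, and 4.38 and 1.46 at 24 h. The part of these cell types in the results was not tested. The difference between KO and WT followed transcript length across 7661 genes, with a Spearman rho of 0.60 at 0 h, 0.13 at 12 h and -0.44 at 24 h, so values with that trend removed are given beside the results they change most.

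The 10 genes separated by how their levels ran over the LPS time course. The regulators Atf4, Ddit3, Trib3, Chac1 and Sesn2, together with Mthfd2, were higher with LPS than without it in WT, while Phgdh, Psat1 and Shmt2 were lower with LPS in both genotypes. KO and WT differed in opposite ways at the ends of the time course. Without LPS all 10 genes were higher in KO, and after 24 h all but Ddit3 were lower in KO. The Psat1 difference lay within counting error at both times.

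**Figure D1:**
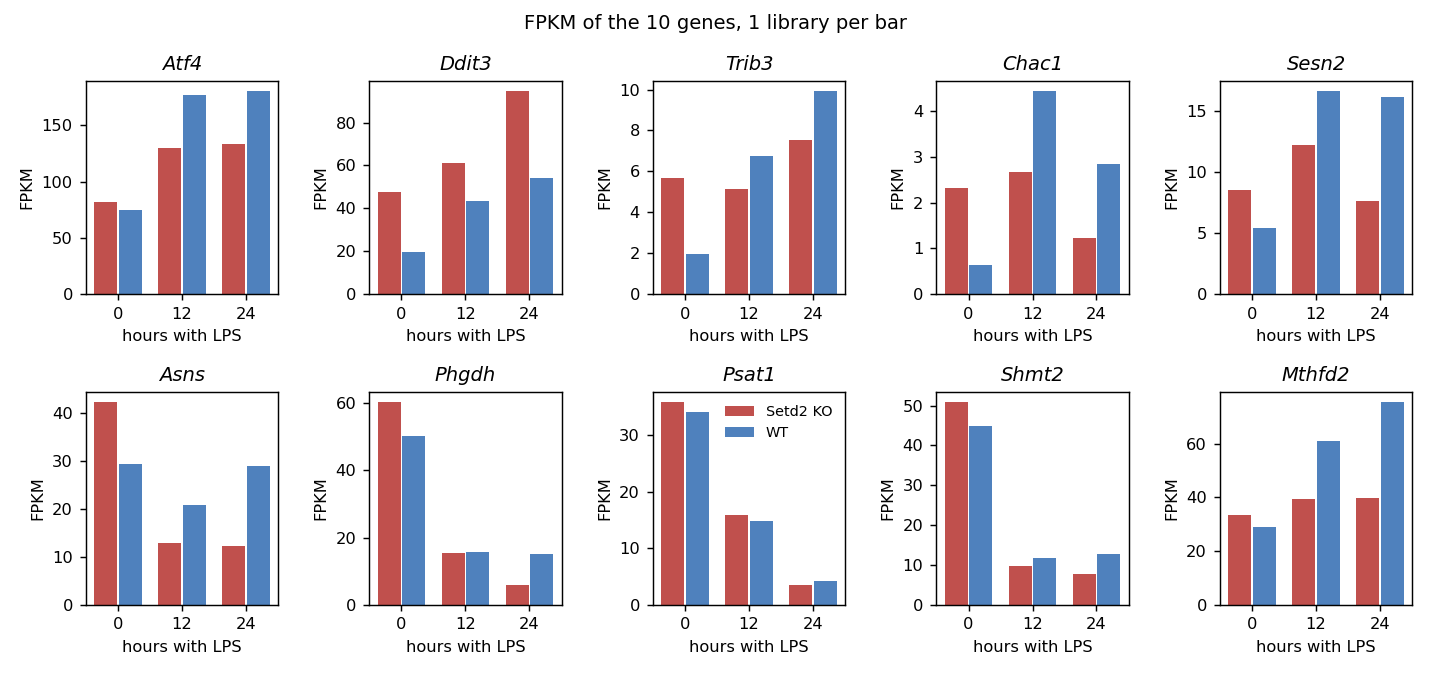
FPKM (y axis, linear, from 0, scaled separately per gene) of the 10 genes at 0, 12 and 24 h with LPS (x axis), with KO bars in red and WT bars in blue and 1 library per bar. KO bars stand above WT bars for every gene at 0 h and, at 24 h, for Ddit3 only (94.6 FPKM in KO and 54.0 in WT).

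Differences below are in log2(FPKM + 1), which understates the change of genes with low FPKM. A gene was called when the difference reached 1, that is 2-fold, in either direction. The intervals printed with fold changes are 95% exact binomial intervals from the estimated reads. They cover counting error only, not the variation between cultures.

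Atf4 (gene ID 11911; GRCm38 chromosome 15, 80255184 to 80257545), the transcription factor at the head of the response, was the most abundant of the 10. It stood at 81.5, 130 and 134 FPKM in KO and at 74.7, 177 and 180 FPKM in WT at 0, 12 and 24 h. Both genotypes were higher with LPS than without it, KO by 0.66 at 12 h and 0.71 at 24 h, and WT by 1.23 and 1.26. KO exceeded WT slightly at 0 h (0.12, and 0.29 with the length trend removed) and was below it at 12 h (-0.44) and 24 h (-0.43). The KO to WT ratio of FPKM was 0.73 (0.71 to 0.76) at 12 h and 0.74 (0.71 to 0.77) at 24 h. ATF4 protein depends on translation, which these RNA values do not measure.

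Ddit3 (gene ID 13198; chromosome 10, 127290793 to 127296291) encodes CHOP, a transcription factor induced by ATF4 that is known for promoting cell death under lasting stress. It was at 47.5, 61.0 and 94.6 FPKM in KO and at 19.5, 43.5 and 54.0 FPKM in WT, higher in KO at all 3 times. The difference was 1.24 at 0 h, a 2.43-fold ratio (2.15 to 2.76), 0.48 at 12 h and 0.80 at 24 h. With the length trend removed these became 1.71, 0.57 and 0.56, so the size at 0 h and 24 h depends on that trend and the direction does not. Against 0 h, KO was higher by 0.36 at 12 h and 0.98 at 24 h (0.54 and 0.53 with the length trend removed), and WT by 1.12 and 1.42 (1.68 and 1.68). Ddit3 was the 1 gene of the 10 that was higher in KO at 24 h. Its annotated span in RefSeq overlaps Mbd6 and Mars1 (Mars in the table), and strand-specific counting is not stated in the sources used here, so reads in the overlaps may be shared. Mars was at 24.7, 11 and 14.4 FPKM in KO and at 22.3, 15.5 and 24.5 FPKM in WT, with KO minus WT at 0.15, -0.46 and -0.73. Mbd6 was at 25.6, 21.1 and 12.4 FPKM in KO and at 22.2, 21.9 and 19.1 FPKM in WT, with KO minus WT at 0.20, -0.06 and -0.59. Both lay above WT at 0 h, like Ddit3, and below it at 24 h. The part of shared reads in the Ddit3 values was not tested.

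Trib3 (gene ID 228775; chromosome 2, 152337425 to 152344060) encodes a pseudokinase that restrains ATF4 activity. It held 5.68, 5.14 and 7.51 FPKM in KO and 1.94, 6.76 and 9.92 FPKM in WT. The KO library was 2.93-fold higher at 0 h (2.26 to 3.77), a difference of 1.18, whereas at 12 h and 24 h it was below WT by values short of a call (-0.34 and -0.36). In WT the LPS libraries exceeded the 0 h library by 1.40 and 1.89, and in KO the differences were -0.12 and 0.35. Scaling by median ratios turns the 12 h value in KO to 0.22.

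Chac1 (gene ID 69065; chromosome 2, 119351242 to 119354326) encodes an enzyme that degrades glutathione. It was the least abundant of the 10, with 2.32, 2.67 and 1.23 FPKM in KO and 0.63, 4.44 and 2.84 FPKM in WT. Those levels rest on about 80, 93 and 44 reads in KO and 22, 154 and 100 reads in WT by the depth estimate. KO was higher at 0 h by 1.03, a FPKM ratio of 3.68 with a wide interval (2.26 to 6.16), and the call ended with median-ratio scaling (0.93) or a pseudocount of 5 (0.38). KO was lower at 24 h by a difference of -0.78, or 2.31-fold in FPKM (1.61 to 3.38). With LPS, WT was higher than at 0 h by 1.74 at 12 h and 1.24 at 24 h. In KO the same differences were 0.14 and -0.57.

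Sesn2 (gene ID 230784; chromosome 4, 132492804 to 132510456) encodes a leucine-binding protein that holds back the growth kinase complex mTORC1. It was at 8.48, 12.2 and 7.60 FPKM in KO and at 5.40, 16.6 and 16.1 FPKM in WT. WT stayed near its 12 h level at 24 h, while KO at 24 h was below KO at 12 h by a difference of -0.61 (-0.37 with the length trend removed). KO minus WT was 0.57, -0.42 and -0.99 at the 3 times. The last value lies just short of a call, at a 2.12-fold lower FPKM (1.92 to 2.34).

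Asns (gene ID 27053; chromosome 6, 7675165 to 7693209), which makes asparagine from aspartate and glutamine, was called lower with LPS in KO but not in WT, a contrast that was not tested. It was at 42.3, 12.9 and 12.3 FPKM in KO and at 29.4, 20.7 and 28.9 FPKM in WT. WT at 24 h matched WT at 0 h within counting error (ratio 0.98, 0.91 to 1.06; a log2 difference of -0.02 that median-ratio scaling turns to 0.27 and removing the length trend to 0.04), and KO at 24 h was 3.45-fold below KO at 0 h. At 24 h the KO library was called lower by a difference of -1.17, a 2.36-fold lower FPKM (2.13 to 2.61). The difference at 0 h was 0.51 and at 12 h -0.64.

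Phgdh (gene ID 236539; chromosome 3, 98313171 to 98339969) carries out the opening step of serine synthesis from the glycolytic intermediate 3-phosphoglycerate. It had 60.4, 15.4 and 5.81 FPKM in KO and 50.3, 15.7 and 15.04 FPKM in WT. Both genotypes were at nearly the same level at 12 h, a difference of -0.03 that scaling by median ratios turns to 0.03 and removing the length trend to -0.01. At 24 h KO was called lower (-1.24), a 2.59-fold lower FPKM (2.23 to 3.02). From 12 h to 24 h the difference was -1.27 in KO and -0.06 in WT (-1.42 and -0.13 with the length trend removed).

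Psat1 (gene ID 107272; chromosome 19, 15905123 to 15925059), the transaminase that acts after Phgdh, did not separate the genotypes. It was at 35.9, 15.9 and 3.53 FPKM in KO and at 34.1, 14.9 and 4.24 FPKM in WT. KO minus WT was 0.07, 0.08 and -0.21, and the counting interval of the ratio held 1 at each time (0.99 to 1.13, 0.96 to 1.17, and 0.68 to 1.01). Without replicates this does not show that the genotypes are alike. Its 24 h level was the lowest of the 4 genes that were called lower with LPS in KO, with differences from 0 h of -3.03 in KO and -2.74 in WT.

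Shmt2 (gene ID 108037; chromosome 10, 127517123 to 127522444), the mitochondrial enzyme that splits serine into glycine and a folate-bound carbon unit, ran at 50.9, 9.83 and 7.65 FPKM in KO and 45.0, 11.7 and 12.6 FPKM in WT. KO minus WT was 0.18, -0.23 and -0.65, with no call. The drop with LPS was called in both genotypes, by -2.26 and -2.59 in KO and -1.86 and -1.76 in WT. Its span overlaps Ndufa4l2, which was at 0.29 FPKM or less in all 6 libraries.

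Mthfd2 (gene ID 17768; chromosome 6, 83305704 to 83326011), the next mitochondrial folate enzyme after Shmt2, went against its neighbours in the pathway. It had 33.6, 39.4 and 39.9 FPKM in KO and 29.0, 61.2 and 75.5 FPKM in WT. WT was higher with LPS by 1.05 at 12 h and 1.35 at 24 h, and KO by 0.22 and 0.24. With median-ratio scaling the KO values became 0.61 and 0.71 and the WT values 1.36 and 1.65. KO minus WT was 0.21, -0.62 and -0.90, and the 24 h ratio was 1.89-fold lower in KO (1.79 to 2.003).

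Counted together, 3 of the 10 genes were called higher in KO at 0 h (Ddit3, Trib3 and Chac1) and 0 lower, where 2.96% of the 11547 measured genes were called higher and 1.26% lower. At 12 h 0 of the 10 were called, where 2.04% of measured genes were. At 24 h 2 of the 10 were called lower (Asns and Phgdh) and 0 higher, where 1.93% of measured genes were called lower and 2.22% higher. The median over the 10 was 0.38, -0.38 and -0.72 at 0, 12 and 24 h, beside 0.02, -0.06 and -0.12 over all measured genes. With the length trend removed the medians of the 10 were 0.41, -0.37 and -0.77, and the same numbers of genes were called in each direction. All 10 were above 0 at 0 h, as were 52.1% of measured genes, and 9 of 10 were below 0 at 24 h, as were 61.4%. The 10 genes were chosen with earlier results of these data known, so these counts describe the libraries and are not independent evidence.

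**Figure D2:**
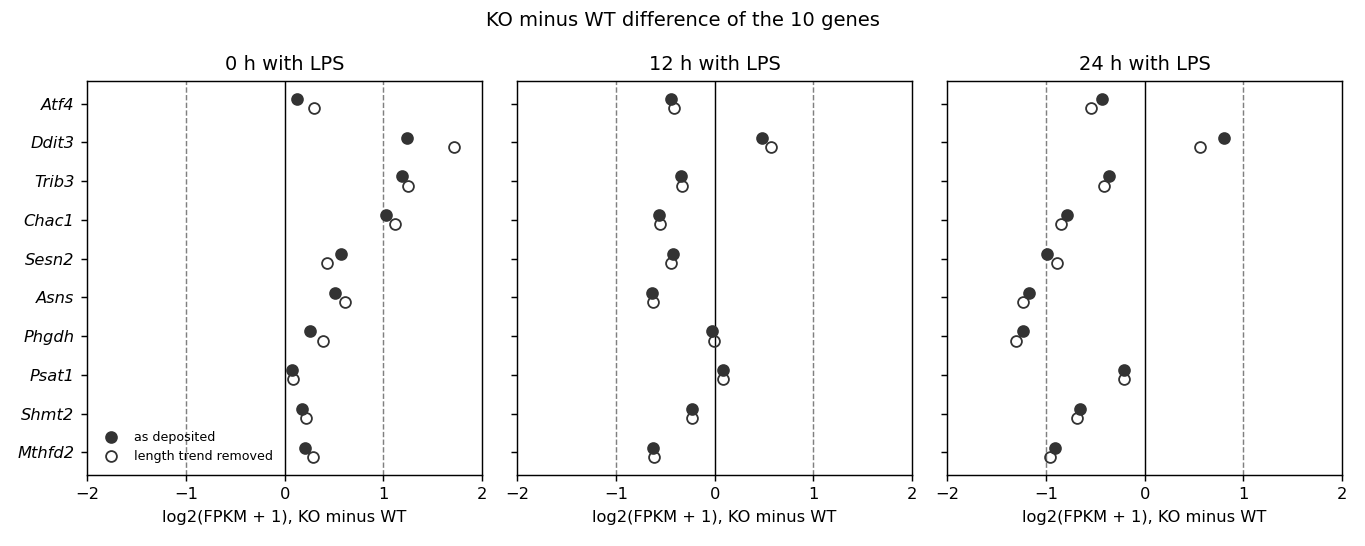
KO minus WT difference in log2(FPKM + 1) (x axis) for each gene (rows) at 0, 12 and 24 h, as deposited (filled) and with the length trend removed (open); dashed lines mark the 2-fold rule and each point is 1 pair of libraries. At 0 h all points lie right of 0, and at 24 h all but Ddit3 (0.80) lie left of it.

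The LPS response of each genotype gives the same differences from the other side. In WT, 6 of the 10 genes were called higher than at 0 h at 12 h and again at 24 h (Atf4, Ddit3, Trib3, Chac1, Sesn2 and Mthfd2), and 3 were called lower at both times (Phgdh, Psat1 and Shmt2). Of all measured genes, 9.64% were called higher and 17.4% lower in WT at 12 h, and 7.65% and 13.9% at 24 h. In KO, 0 of the 10 were called higher at either time and 4 were called lower at both (Asns, Phgdh, Psat1 and Shmt2), where 8.63% of measured genes were called higher and 17.5% lower at 12 h, and 7.55% and 21.6% at 24 h. The responses at 12 h and 24 h share the 0 h library of their genotype. The 0 in KO depends on the scaling of the libraries. The median over all measured genes was -0.36 and -0.39 in KO and -0.28 and -0.25 in WT at 12 h and 24 h, and median-ratio scaling brings it to -0.02, 0.00, -0.02 and 0.01. Under that scaling Atf4 was called higher in KO at both times (1.06 and 1.18) and Ddit3 at 24 h (1.45), Psat1 at 12 h lost its call in KO (-0.74) and WT (-0.84), and Sesn2 in KO at 24 h was at 0.29 in place of -0.14 (0.06 with the length trend removed). The other regulators in KO moved too under that scaling, with Ddit3 at 0.75 at 12 h, Trib3 at 0.76 at 24 h, and Chac1 at 0.43 and -0.27.

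**Figure D3:**
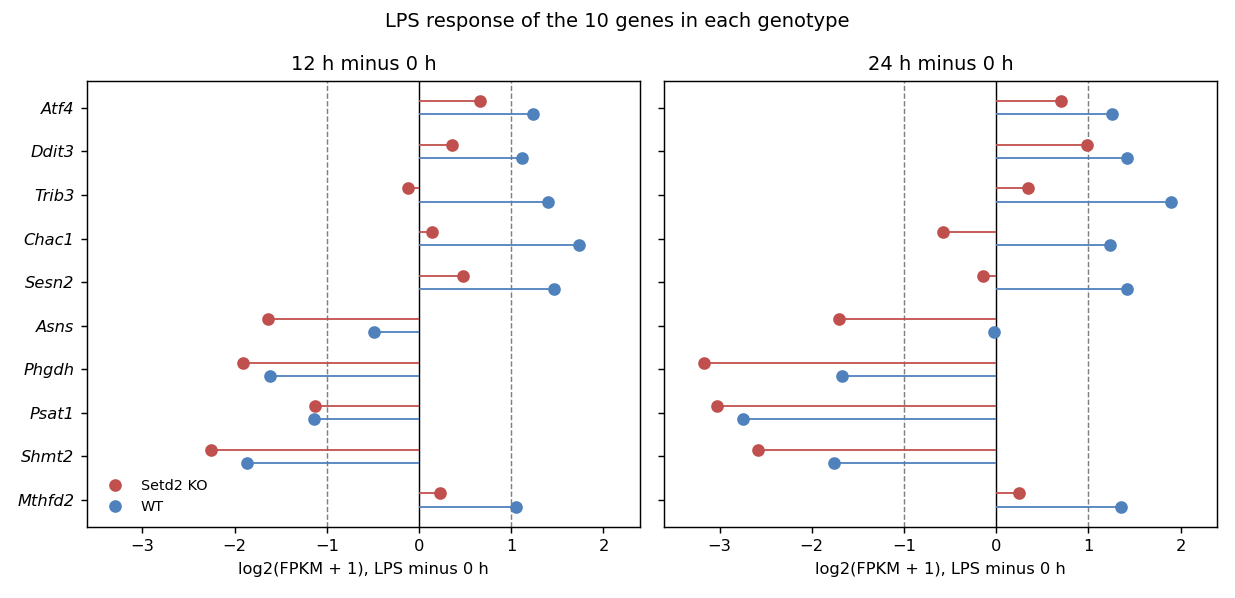
LPS response of each gene (rows), as log2(FPKM + 1) at 12 h or 24 h minus 0 h (x axis), with KO in red above WT in blue; dashed lines mark the 2-fold rule and each point is 1 pair of libraries. At 24 h the KO point lies left of the WT point for all 10 genes, as for 57.8% of measured genes. The points of Chac1 (-0.57 in KO, 1.24 in WT) and Sesn2 (-0.14 in KO, 1.42 in WT) lie on opposite sides of 0. With the length trend removed Sesn2 in KO is at 0.06.

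The KO response minus the WT response was below 0 for all 10 genes at 24 h, as for 57.8% of measured genes. At 12 h it was below 0 for 9 (all but Psat1, at 0.01), as for 56.4% of measured genes. It reached a 2-fold size in 3 genes at 12 h, with Chac1 at -1.59, Trib3 at -1.52 and Asns at -1.15, where 3.14% of measured genes were lower by as much. With the length trend removed Ddit3 joined them (-0.76 as deposited, -1.14 with the trend removed), and with a pseudocount of 5 all 3 fell short of that size, at -0.68, -0.84 and -0.98. At 24 h it did so in 6 genes, where 8.63% of measured genes did. These were Chac1 (-1.81), Asns (-1.68), Sesn2 (-1.56), Trib3 (-1.54), Phgdh (-1.50) and Mthfd2 (-1.11, and -0.94 with median-ratio scaling). With a pseudocount of 5 Chac1 (-0.71) and Trib3 (-0.88) fell short of it. Ddit3 was at -0.44 at 24 h as deposited and at -1.15 with the length trend removed. Each such value joins 4 libraries, and part of it is the KO excess at 0 h. For Trib3 and Chac1 the 0 h difference (1.18 and 1.03) made up more than the 24 h difference (-0.36 and -0.78), and for Phgdh, Asns, Sesn2 and Mthfd2 the 24 h difference made up more.

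From 12 h to 24 h, Psat1 was the 1 gene of the 10 called in WT (-1.60), where 3.79% of measured genes were called lower. In KO, Psat1 (-1.90) and Phgdh (-1.27) were called lower, where 7.67% of measured genes were. Atf4 stayed level over this interval in both genotypes, at 0.04 in KO and 0.03 in WT; removing the length trend turns these to -0.19 and -0.06.

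The enzymes and regulators around the 10 genes were read from 7 lists. For KO against WT, 2.96% of all measured genes were called higher and 1.26% lower at 0 h. At 12 h 2.04% were called in either direction, and at 24 h 2.22% were called higher and 1.93% lower. These shares stand beside the calls of every list below, and single calls in such short lists are not read as results about the lists. Among the 4 eIF2α kinases, eIF2α itself (Eif2s1) and 2 phosphatase subunits that reverse the kinases (7 measured of 7), 1 was called higher in KO at 0 h and 1 lower at 24 h. The first was Eif2ak2, the interferon-inducible kinase PKR that senses viral RNA, at 23.5 FPKM in KO and 7.65 in WT (1.4997). The other was Eif2ak3, the endoplasmic reticulum kinase PERK, at 1.74 FPKM in KO and 4.68 in WT (-1.05). Eif2ak4, the amino acid sensing kinase GCN2, differed by 0.72 at 0 h and -0.30 at 24 h (0.46 and -0.11 with the length trend removed). Ppp1r15a, which encodes the inducible phosphatase subunit GADD34, was at 11.2, 48.9 and 18.9 FPKM in KO and 8.83, 34.7 and 21.02 in WT over the time course. The medians of this list were 0.27, 0.06 and -0.15, and 0.06, 0.04 and -0.11 with the length trend removed.

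Other genes linked to ATF4 (12 measured of 17) had medians of -0.02, -0.14 and -0.29 and 0 calls before 24 h. With the length trend removed the 0 h median turned to 0.19, and those at 12 h and 24 h were -0.14 and -0.31. At 24 h Pck2, the mitochondrial enzyme that makes phosphoenolpyruvate, was called lower, at 3.21 FPKM in KO and 8.88 in WT (-1.23). Aldh18a1, which starts proline synthesis, was called lower too, at 2.41 FPKM in KO and 5.85 in WT (-1.01, and -0.92 with the length trend removed). The transcription factor genes Atf3 and Cebpb, the second of which encodes a partner of CHOP and ATF4, were at 0.59 and 0.61 at 24 h, on the same side as Ddit3. Gdf15, a stress cytokine, was at 0.85 at 0 h and at 1.07 with the length trend removed. Amino acid transporters (10 measured of 11) had a median of 0.56 at 0 h, with all 10 above 0, of -0.24 at 12 h, and of -0.70 at 24 h, with 9 below 0. With the length trend removed the transporter medians were 0.43, -0.27 and -0.63. The cystine carrier Slc7a11 was called higher at 0 h, at 3.24 FPKM in KO and 1 FPKM in WT (1.08, and 0.73 with the length trend removed). The cationic amino acid carrier Slc7a1 was called lower at 24 h, at 1.38 FPKM in KO and 4.40 in WT (-1.18), and the neutral amino acid carrier Slc38a2 at 13.0 FPKM in KO and 28.8 in WT (-1.09, and -0.87 with the length trend removed).

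The rest of serine, glycine and folate metabolism (11 measured of 14) had medians of 0.00, -0.04 and -0.01 (0.00 at 24 h with the length trend removed). For KO against WT, 1 gene was called higher at 0 h (0 with the length trend removed), and 0 were called at 12 h and 24 h. Psph, the phosphatase that completes serine synthesis after Phgdh and Psat1, was at 10.7, 3.98 and 3.87 FPKM in KO and 10.1, 3.66 and 4.17 in WT. Mthfd1l, the mitochondrial enzyme that releases formate, was at -0.87 at 12 h and -0.84 at 24 h. In this list, 7 genes in KO and 6 in WT were called lower with LPS at 12 h, and the same numbers at 24 h. With the length trend removed, the KO number at 24 h was 6. Called higher were 2 in KO and 1 in WT at 12 h, and 1 in each at 24 h. Of all measured genes, 17.5% in KO and 17.4% in WT were called lower at 12 h, and 21.6% and 13.9% at 24 h. The shares called higher were 8.63% and 9.64% at 12 h, and 7.55% and 7.65% at 24 h. Of 20 cytosolic aminoacyl-tRNA synthetases, which load amino acids onto tRNA, 0 were called at 0 h and 12 h, and 1 at 24 h. That was Iars, for isoleucine, lower in KO (-1.17, and -0.98 with the length trend removed). Their medians were 0.17, -0.28 and -0.15.

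In the branches of the unfolded protein response driven by ATF6 and XBP1 (18 measured of 18), the medians were 0.29, -0.02 and -0.20, and 0.16, -0.02 and -0.11 with the length trend removed. Ern1, which encodes the sensor IRE1α that splices Xbp1 mRNA, was the 1 call at 0 h and at 24 h. It was at 8.48, 7.82 and 1.40 FPKM in KO and at 3.16, 7.75 and 5.97 FPKM in WT, with differences of 1.19 (0.82 with the length trend removed), 0.01 (-0.04 with the trend removed) and -1.54. Hspa5, the chaperone BiP that is a standard readout of these branches, was at 412, 444 and 410 FPKM in KO and at 330, 398 and 429 FPKM in WT. Among paralogs of the 10 genes (4 measured of 5), Sesn1 was lower in KO at every time (-0.99, -0.71 and -1.06) with a call at 24 h. With the length trend removed the call moved to 0 h (-1.11) and the 24 h value to -0.99. Its paralog Sesn2 was above WT at 0 h. The medians of the 4 were -0.15, -0.45 and -0.41.

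**Figure D4:**
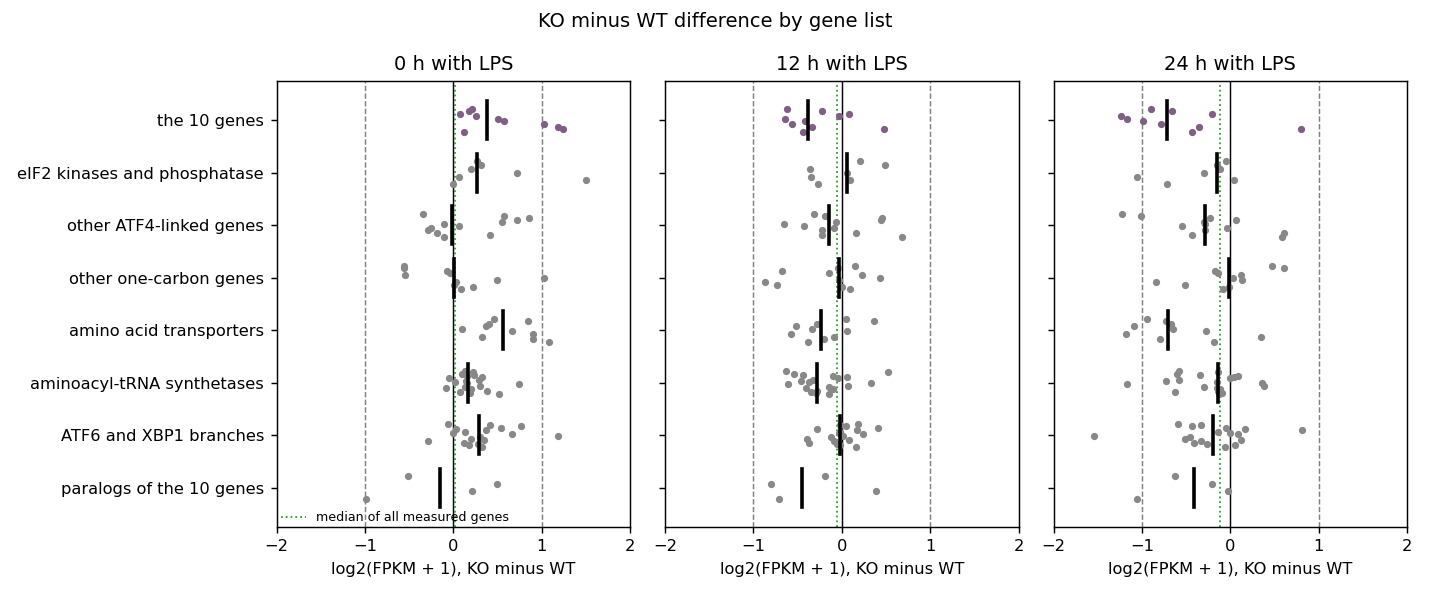
KO minus WT difference in log2(FPKM + 1) (x axis) at 0, 12 and 24 h for the 10 genes (purple) and 7 lists (grey), 1 point per measured gene; black bars are list medians, dashed lines the 2-fold rule and the green dotted line the median of all measured genes. The 10 genes and the amino acid transporters have positive medians at 0 h (0.38 and 0.56) and negative medians at 24 h (-0.72 and -0.70). The same signs, with smaller medians, are seen for the eIF2 kinases and phosphatase (0.27 and -0.15) and the aminoacyl-tRNA synthetases (0.17 and -0.15). They are also seen for the ATF6 and XBP1 branches (0.29 and -0.20). Over all measured genes the medians had these signs too (0.02 and -0.12). The 24 h medians of the eIF2 and synthetase lists lay near that background.

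The genes whose 6 values ran most like those of Atf4, Phgdh and Ddit3 were picked by Pearson's r of log2(FPKM + 1) among 7440 other genes whose mean was 5 FPKM or more. With 6 points from 2 genotypes and 3 times, high values of r are common, so they describe the pattern only. For Atf4 they were Lpcat2, Ggta1, Nadk, Ddit4 and Jak3 (r of 0.98 to 0.99). For Phgdh they were Klhl9, Hnrnpul2, Wls, Kdsr and Cpped1 (r of 0.997 to 0.998). For Ddit3 they were Ikbkg, Ttc1, Ly6a, Sdccag3 and Pex14 (0.96 to 0.99). Ly6a stood at 131, 326 and 913 FPKM in KO and at 33.6, 149 and 348 FPKM in WT.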

How the data were processed

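RNA was sequenced from 6 macrophage libraries, 1 per genotype and time. Per the file headers, the authors deposited FPKM values per gene; per the submitters' processing notes, Bowtie2, RSEM and genome build GRCm38 were used, with no versions or settings. A count table was not used here, and strand is not given in the sources used here. The deposited table had 17905 rows, of which 1 named no gene, and 2 cells that were not numbers were left as missing. The symbols of 25 genes, stored as dates, were looked up again by gene ID. Genes with all 6 values and 1 FPKM or more in some library counted as measured (11547 genes).

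Differences were taken in log2(FPKM + 1) and called at 2-fold. With 1 library per group no test was run; an additive fit over times was not run. Reads per gene were estimated from the spacing of low FPKM values of single-transcript genes (assumed read length 50 nt), with scores of 0.26 to 0.37, against 0.06 to 0.16 with lengths shuffled. The shuffled scores were searched over a coarser set of depths, which favours the unshuffled scores. The WT 24 h library had the lowest score (0.26) and the highest shuffled score (0.16). Transcript lengths came from GENCODE M21. The length trend of each library was a lowess curve (span 0.3, statsmodels 0.14.6, fitted on genes averaging 10 FPKM or more). Alternatives were pseudocounts of 0.1 and 5, minimum FPKM of none or 5, a 1.5-fold rule, median-of-ratios and trimmed-mean scaling, and the length correction. Calls, scaling and length correction were tested on simulated data. Named genes were the 10 genes, called list members and up to 4 list members with the largest differences per comparison, and the 5 genes most like each of 3 genes; Psph, Hspa5, Mars, Mbd6 and Ndufa4l2 were named after their values were seen. The genes, lists and alternatives were chosen with earlier results of these data known. Promoters are RefSeq, build GRCm38.p6. The values of 1 list gene are not reported here.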

Additional observations from a re-analysis of the deposited data

Results flagged for a closer look

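For 6 of the 10 genes the KO and WT libraries moved apart in sign, either in the LPS response or in the KO minus WT difference before and after LPS, with a response difference (KO minus WT) of at least 2-fold. Each rests on 4 libraries without replicates, and the differences were not tested. At 12 h these were Trib3 (-1.52), Chac1 (-1.59) and Asns (-1.15). At 24 h they were Trib3 (-1.54), Chac1 (-1.81), Sesn2 (-1.56), Asns (-1.68), Phgdh (-1.50) and Mthfd2 (-1.11). The share of all measured genes that meet both parts of this rule was not computed. The 2-fold part alone, in either direction, was met by 4.79% of measured genes at 12 h and 12.7% at 24 h.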

How the results depend on the processing

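No called difference of the 10 genes changed sign under any of the 8 alternatives. For a difference between 2 libraries, only median-of-ratios scaling, trimmed-mean scaling and the length correction could change the sign. Of 869 values under the 8 alternatives, 815 stayed on the same side of the fold rule and 54 crossed it. The minimum-FPKM settings (110 and 99 values) leave each difference unchanged, so none of theirs could cross. The 1.5-fold rule moves only the threshold, and 17 of its 110 values crossed. The number of the 10 genes called for KO against WT at 0 h was 3 and became 1 with a pseudocount of 5 (Ddit3), and 2 with median-of-ratios or trimmed-mean scaling (Chac1 lost, at 0.93 in both) or with a minimum of 5 FPKM. At 12 h it was 0 and became 2 with a 1.5-fold rule. At 24 h it was 2 and became 7 with a 1.5-fold rule, 4 with a pseudocount of 0.1, and 0 with a pseudocount of 5. For WT at 12 h against 0 h it was 9 and became 4 with a pseudocount of 5. With a minimum of 5 FPKM Chac1 was not measured. Over all measured genes, KO against WT at 0 h gave 342 higher and 146 lower, 590 and 277 with a pseudocount of 0.1, 109 and 36 with a pseudocount of 5, and 1092 and 900 with a 1.5-fold rule. At 12 h the counts were 152 and 84, and under those settings 302 and 215, 40 and 14, and 494 and 431; a minimum of 5 FPKM gave 89 and 39. At 24 h they were 256 and 223, then 430 and 677, 98 and 37, and 700 and 1251, and median-of-ratios scaling gave 333 and 158. KO at 24 h against 0 h gave 872 higher and 2489 lower, and 1503 and 1358 with that scaling; WT gave 883 and 1600, and 1155 and 1044. At 12 h KO gave 996 and 2020, and 1391 and 1121; WT gave 1113 and 2010, and 1478 and 1271. Each group holds 1 library, so replicate numbers pair nothing; KO and WT could be paired by time in an additive fit over the 3 times, which was not run. Counting error limits Chac1 most, at about 22 reads in WT at 0 h.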
